A study of Saccharomyces cerevisiae with 12 samples.

Results

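The 92 genes described here take part in making ribosomes in the budding yeast Saccharomyces cerevisiae. They were chosen by symbol, as genes named for U3-associated (UTP), nucleolar (NOP, NOC) or ribosomal RNA processing (RRP) proteins. Also chosen were RNA polymerase I subunits (RPA) and DEAD-box RNA helicases (DBP2, DBP3 and DBP5 to DBP10, with MAK5). Named single factors such as NSR1, CBF5 and BRX1 completed the list. They make up 92 of the 5594 genes measured, and each was read by 1 probe that shared its accession with no other gene. By textbook role they fell into 9 groups of 4 to 25 genes.

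The series compared a strain lacking ZTA1 (∆zta1) with its wild type, FY834α, on 2-colour expression arrays. ZTA1 encodes zeta-crystallin, a quinone oxidoreductase. Cultures of both strains were in exponential phase in YPD at 30ºC, and 3 pairs of them received 10 mM hydrogen peroxide (H2O2) for 30 min, while the other 3 pairs were left untreated. Each of the 6 pairs was hybridised on 2 arrays with the dyes exchanged, which makes 12 arrays. How the deletion was made, and from how many clones, is not given in the sources used here. All values are log2 ratios of ∆zta1 over wild type in the same treatment, so the response of a strain to H2O2 was not measured. Total RNA was extracted from whole cultures, where fewer cells with a transcript and less of it per cell cannot be told apart.

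ZTA1 itself had log2 ratios of -4.96, -4.56 and -4.58 in the H2O2 pairs, and of -5.84, -4.32 and -5.73 in the untreated pairs, all far below 0 and as the labels require. The deposited table held no intensities, so signal over background is unknown. Mating type markers had no direction shared by the pairs. The median ratio of 6 a-cell genes ran between -0.167 and 0.008 over 5 pairs and stood at 0.030 in untreated replicate 3. That of 5 alpha-cell genes lay between -0.162 and 0.145.

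Ribosome synthesis starts in the nucleolus, where RNA polymerase I transcribes the ribosomal DNA into 1 long precursor. Small nucleolar RNA particles modify that precursor, the 90S pre-ribosome (the small subunit processome) folds and cuts it, and helicases, assembly factors and the exosome then release and trim the parts of either subunit. In yeast these genes are known as a co-regulated set, high in fast growth in rich medium and repressed under stress, through regulators such as Sfp1, Dot6 and Tod6.

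None of the ribosome biogenesis genes passed the test of ∆zta1 against wild type, and the ratios allowed by the data were small. The threshold was a limma p under 0.05 after Benjamini-Hochberg adjustment across the 5594 genes. Under H2O2, 0 of the 92 passed, where 0.215% of all genes did. In untreated cells 0 of 92 passed (0.197% of all genes), 0 passed for the difference between the treatments (0.0% of all genes) and 0 for the mean of both treatments (0.286% of all genes). The smallest adjusted p of any member with limma was 0.585 under H2O2, 0.999 untreated, 0.999 for the difference and 0.265 for the mean. The 95% confidence interval of every member lay within 1.25-fold either way, or 0.322 on the log2 scale, in all 4 comparisons. So did most of the 5594 genes, with 5516 under H2O2, 5462 untreated, 5365 for the difference and 5540 for the mean, so these bounds do not set the members apart. The outermost bounds were -0.167 and 0.207 under H2O2, -0.179 and 0.214 untreated, -0.265 and 0.228 for the difference, and -0.111 and 0.165 for the mean.

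The genes moved as a body from pair to pair. In the H2O2 pairs their median log2 ratio was -0.052 in replicate 1, 0.035 in replicate 2 and 0.104 in replicate 3. In the untreated pairs it was 0.041, 0.057 and -0.041. So 4 pairs had most members higher in ∆zta1 and 2 pairs, 1 of either treatment, had most of them lower. The number of members above 0 was 23, 74 and 89 of 92 in the H2O2 pairs, and 81, 76 and 25 of 92 in the untreated pairs, which is 25.0%, 80.4%, 96.7%, 88.0%, 82.6% and 27.2%. Over all genes the medians lay between -0.003 and 0.002 and the shares between 47.7% and 51.3%. The mean of the pair medians was 0.029 ± 0.078 under H2O2 and 0.019 ± 0.053 in untreated cells (SD, n = 3 pairs each), and in either treatment it was smaller than the spread between pairs.

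**Figure D1:**
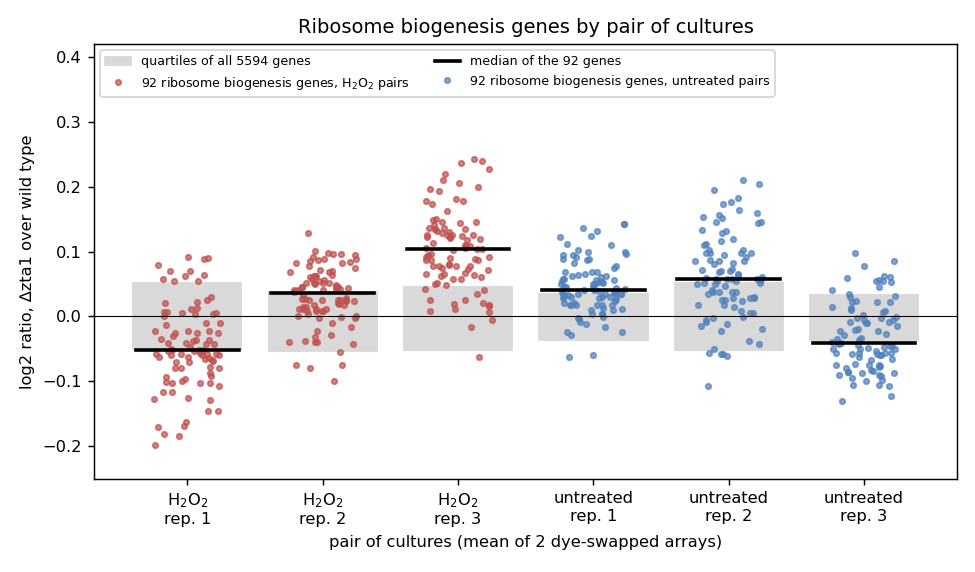
Log2 ratio of ∆zta1 over wild type (vertical axis) for the 92 ribosome biogenesis genes in each pair of cultures (horizontal axis), with points for genes, a black line for their median and a grey box for the quartiles of all 5594 genes. The median lies above 0 in H2O2 replicates 2 and 3 and in untreated replicates 1 and 2, and below 0 in H2O2 replicate 1 and untreated replicate 3.

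In the fit, the median over the 92 genes was 0.028 under H2O2, 0.023 untreated, 0.0010 for the difference and 0.026 for the mean of both treatments, beside -0.0023, 0.0005, -0.0017 and -0.0017 over all genes. Of the 92, 75 were above 0 under H2O2 (81.5%, against 47.9% of all genes), 72 untreated (78.3%, against 50.6%), 46 for the difference (against 48.6%) and 78 for the mean (84.8%, against 48.2%). Leaving out a pair changed the size of these medians, and those for H2O2 and for the difference also changed sign. The untreated median and that for the mean stayed above 0. Without H2O2 replicate 3 the H2O2 median was -0.0078, without H2O2 replicate 2 it was 0.0215, and without H2O2 replicate 1 it was 0.068. The untreated median was 0.0099 without untreated replicate 1, 0.0061 without untreated replicate 2 and 0.055 without untreated replicate 3. For the mean of both treatments the median was 0.047, 0.0248 and 0.0067 without H2O2 replicates 1, 2 and 3. It was 0.0195, 0.015 and 0.043 without untreated replicates 1, 2 and 3. No set test was made, and since all 92 genes of a pair come from the same RNA, the counts of genes above 0 are not independent observations.

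Much of the spread of a member between pairs was common to the list. The SD of a gene between the pairs of a treatment had a median of 0.077 over the 92 genes, against 0.061 over all genes. After the list median of each pair was subtracted it was 0.049 for the members, and it stayed at 0.061 over all genes. Other lists, described below, also dropped when their own medians were subtracted. The values went from 0.072 to 0.046 for 90 other ribosome biogenesis genes and from 0.083 to 0.053 for 135 ribosomal protein genes. For 33 stress genes they went from 0.129 to 0.099, so the drop is not particular to the members.

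Unadjusted p-values show where the members lay among all genes, and they are given as a description. For the mean of both treatments, 14 of 92 (15.2%) had an unadjusted limma p under 0.05 and a higher level in ∆zta1, where 3.83% of all genes did, and 0 were lower, where 5.63% of all genes were. Under H2O2, 7 of 92 (7.61%) were higher, against 3.06% of all genes, and 1 was lower (1.09%), against 5.24%. In untreated cells 2 of 92 (2.17%) were higher, against 0.93% of all genes, and 0 were lower, against 2.72%. For the difference 0 were higher and 0 were lower, against 0.447% and 0.822% of all genes. Above 0 in all 3 H2O2 pairs were 22 members (23.9%, against 14.2% of all genes), and 2 were below 0 in all 3 (2.17%, against 15.8%). Above 0 in all 3 untreated pairs were 18 members (19.6%, against 10.5%), and 1 was below 0 in all 3 (1.09%, against 11.0%). In all 6 pairs, 9 members were above 0 (9.78%, against 3.09% of all genes) and 0 were below 0 (against 3.74%).

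The 7 genes of RNA polymerase I, which makes the ribosomal RNA precursor, had pair medians of -0.022, 0.026 and 0.051 under H2O2, and of 0.088, 0.017 and -0.021 untreated. RPA135 (YPR010C), the second-largest subunit, had the highest mean ratio of the group. Its values were 0.092, 0.048 and 0.051 in the H2O2 pairs and 0.096, -0.015 and 0.059 in the untreated pairs, so 5 of 6 pairs were above 0. The fitted mean was 0.055 (SE 0.022, limma adjusted p = 0.507). RPA43 (YOR340C), the subunit that contacts the initiation factor Rrn3, had the lowest mean at -0.011. Its H2O2 values were -0.102, 0.014 and 0.016 and its untreated values -0.001, 0.030 and -0.021, which scatter on both sides of 0.

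UtpA and UtpB are protein complexes that bind the growing precursor early and start the 90S particle. The 6 UtpA genes had pair medians of -0.037, 0.069 and 0.067 under H2O2 and 0.034, 0.092 and -0.026 untreated, and the 5 UtpB genes 0.004, 0.062 and 0.092 under H2O2 and 0.030, 0.098 and -0.001 untreated. UTP5 (YDR398W) of UtpA was at 0.020, 0.128 and 0.121 under H2O2 and at 0.024, 0.156 and -0.005 untreated (mean 0.074, SE 0.028, limma adjusted p = 0.488). UTP4 (YDR324C), also of UtpA, was at -0.023, 0.075 and 0.078 under H2O2 and at 0.044, 0.146 and 0.062 untreated, and it was above 0 in all 3 untreated pairs. UTP15 (YMR093W), of the same complex, averaged -0.001 over the 6 pairs. UTP21 (YLR409C) of UtpB was among the steadiest members, with an SD of 0.026 over the 6 pairs. Its ratios were 0.070, 0.062 and 0.095 under H2O2 and 0.030, 0.097 and 0.053 untreated, all above 0 (mean 0.068, SE 0.020, limma adjusted p = 0.469). DIP2 (YLR129W), another UtpB gene, was likewise above 0 in all 6 pairs, at 0.070, 0.070 and 0.019 under H2O2 and 0.035, 0.098 and 0.035 untreated. UTP6 (YDR449C) of that complex spread from -0.185 to 0.125 over the H2O2 pairs alone.

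The 21 other factors of the 90S particle had pair medians of -0.062, 0.025 and 0.123 under H2O2 and 0.037, 0.058 and -0.035 untreated. ENP2, a nucleolar WD-repeat protein, had the highest mean of them, with 0.025, 0.057 and 0.181 in the H2O2 pairs and 0.062, 0.204 and 0.008 in the untreated pairs. All 6 values were above 0, and the fitted mean of 0.090 (SE 0.032) had a limma adjusted p of 0.480. UTP11 had the lowest mean, and its ratios were -0.199, -0.042 and 0.126 under H2O2 and 0.034, 0.051 and -0.088 untreated. RRP7, which takes part in early small subunit assembly, was below 0 in the 3 H2O2 pairs (-0.108, -0.002 and -0.016) and at 0.050, 0.034 and -0.058 in the untreated pairs. The difference between treatments was -0.051 for RRP7 (SE 0.049) and -0.064 for NOP14 (SE 0.053), a scaffold of the small subunit precursor, both with a limma adjusted p of 0.999. RRP5 (needed for either subunit) and UTP20 were above 0 in all 6 pairs, with means of 0.061 and 0.066, and are named here after their values were seen.

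Box C/D particles, built on NOP1, NOP56 and NOP58, methylate the precursor or, as the U3 particle, guide its folding and cutting. These 7 genes had pair medians of -0.058, 0.045 and 0.087 under H2O2 and 0.021, 0.087 and -0.065 untreated. In H2O2 replicate 1, 0 of the 7 were above 0, while in H2O2 replicate 3 and untreated replicate 1 all 7 were. IMP3, a U3-associated protein, was among the 3 most variable members. Its ratios were -0.169, 0.045 and 0.194 under H2O2 and 0.050, 0.146 and -0.065 untreated (SD 0.134 over 6 pairs). IMP4, its partner on U3, was lowest of the group on average, at -0.117, 0.001 and 0.124 under H2O2 and 0.020, -0.108 and -0.122 untreated, and RRP9, a protein specific to U3, was highest with a mean of 0.039.

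The box H/ACA genes were the one role whose median stayed above 0 in all 6 pairs, at 0.055, 0.010 and 0.108 under H2O2 and 0.043, 0.016 and 0.026 untreated. These 4 genes form the particle that turns uridines of ribosomal RNA into pseudouridine, and in each pair 3 of the 4 were above 0, though not the same 3. Only GAR1 was above 0 in all 6 pairs. NHP2, one of its core proteins, was at 0.088, 0.014 and 0.104 under H2O2 and at 0.136, 0.041 and -0.057 untreated. CBF5, the pseudouridine synthase itself, stayed close to 0, with 0.057, 0.009 and -0.006 under H2O2 and -0.024, -0.023 and 0.030 untreated. With so few genes, and none that passed the test, the role is not set apart from the others.

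**Figure D2:**
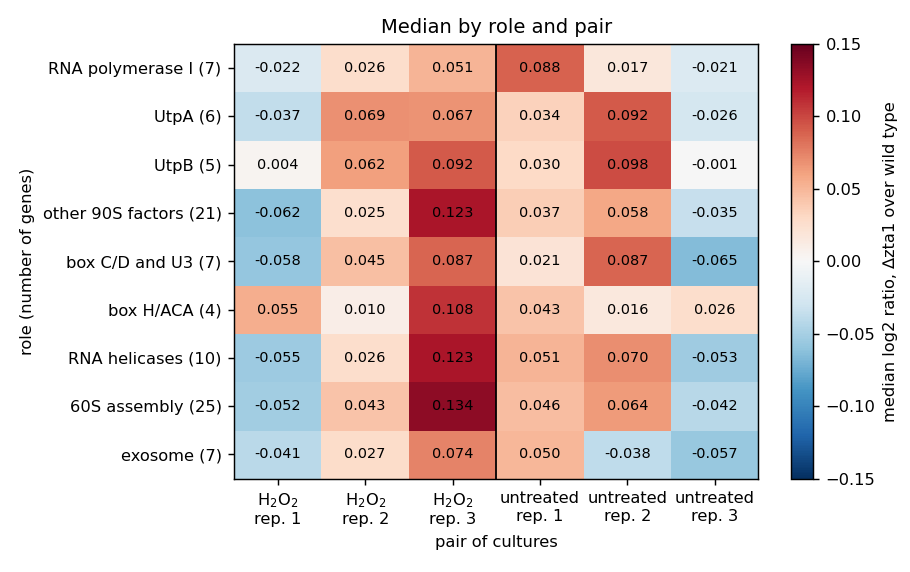
Median log2 ratio of ∆zta1 over wild type for each role (rows, with the number of genes) in each pair of cultures (columns), coloured from blue below 0 to red above 0. H2O2 replicate 3 is above 0 in every row, and most rows are below 0 in H2O2 replicate 1 and untreated replicate 3. The box H/ACA row alone is above 0 throughout.

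The 10 RNA helicase genes had pair medians of -0.055, 0.026 and 0.123 under H2O2 and 0.051, 0.070 and -0.053 untreated. DBP7, a helicase of large subunit assembly, was highest on average (mean 0.071) and lay above the list median in all 6 pairs. DBP5 differs in role, since it releases messenger RNA on the outer face of the nuclear pore. It was the one member with an unadjusted p under 0.05 in the lower direction under H2O2, where its ratios were -0.129, -0.040 and -0.062, against 0.004, 0.037 and -0.050 in the untreated pairs. All 3 H2O2 pairs were below 0, and the fitted -0.077 (SE 0.032) had a limma adjusted p of 0.598. For the difference between treatments DBP5 stood at -0.074 (SE 0.045, limma adjusted p = 0.999), so the treatments were not shown to differ. DBP2, which acts mainly on messenger RNA, scattered widely, with -0.080, -0.075 and 0.240 under H2O2 and 0.124, 0.102 and -0.086 untreated. DBP10, a helicase of the large subunit, averaged 0.080 untreated (SE 0.038), and DBP8, of the small subunit, differed by 0.069 between treatments (SE 0.059), both with a limma adjusted p of 0.999.

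The 25 genes of large subunit (60S) assembly followed the whole list, with pair medians of -0.052, 0.043 and 0.134 under H2O2 and 0.046, 0.064 and -0.042 untreated. Of the 25, 7, 22 and 25 were above 0 in the H2O2 pairs and 23, 23 and 7 in the untreated pairs. NOP7 (YGR103W), which forms a complex with Erb1 and Ytm1 that is needed to mature the large subunit RNA, had the highest mean ratio of all 92 genes. NOP7 had ratios of 0.080, 0.098 and 0.205 in the H2O2 pairs, and of 0.143, 0.073 and 0.055 in the untreated pairs. Every pair was above 0 and above the median of the list, also in the 2 pairs where most members were at or below 0. The fitted ratio of NOP7 was 0.128 under H2O2 (SE 0.035, unadjusted p = 0.00563, limma adjusted p = 0.585), 0.091 untreated (SE 0.035, limma adjusted p = 0.999) and 0.109 for the mean (SE 0.025, unadjusted p = 0.00184, limma adjusted p = 0.265). In none of the 4 comparisons did NOP7 pass. Its partners ERB1 and YTM1, outside the 92 genes and looked at after the values of NOP7 were seen, had means of 0.050 and 0.034 and were above 0 in 5 and 3 of the 6 pairs.

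RRP14, which acts on both subunit precursors, had ratios of 0.030, 0.088 and 0.174 under H2O2 and 0.074, 0.057 and 0.060 untreated. It was above 0 in all 6 pairs, with a mean of 0.081 (SE 0.024, limma adjusted p = 0.469). SSF1 showed the largest positive difference between treatments among members, 0.076 (SE 0.059, limma adjusted p = 0.999). Its ratios were 0.006, 0.085 and 0.196 under H2O2 and 0.017, 0.083 and -0.042 untreated, which overlap. SSF2, a near-identical copy of SSF1 that may share its signal, was at 0.011, 0.075 and 0.140 under H2O2 and 0.021, -0.005 and 0.051 untreated. BRX1, a partner of large subunit assembly, was the most variable member, at -0.146, -0.040 and 0.220 under H2O2 and 0.018, 0.183 and -0.003 untreated (SD 0.139 over 6 pairs). RRP8, a methyltransferase of ribosomal RNA, had the lowest mean of the group, -0.007.

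**Figure D3:**
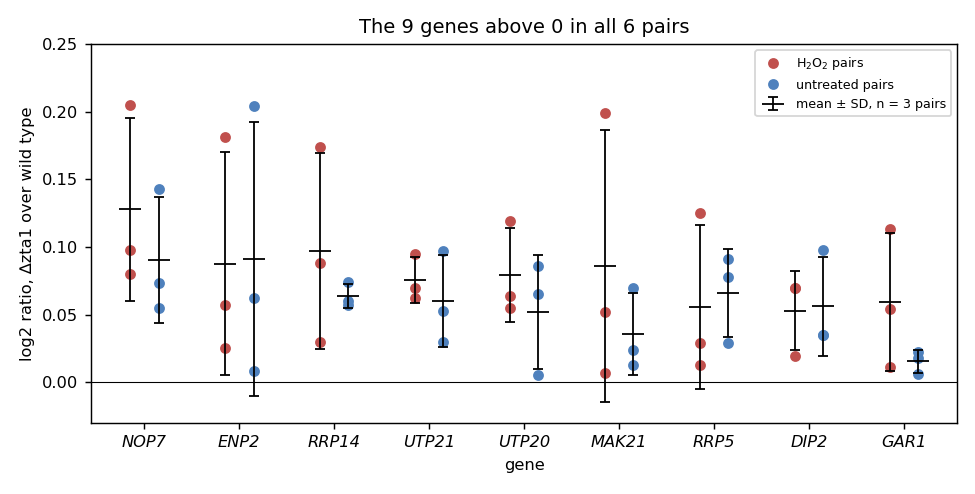
Log2 ratio of ∆zta1 over wild type (vertical axis) for the 9 members above 0 in all 6 pairs, with points for pairs and bars for the mean ± SD of 3 pairs per treatment, H2O2 in red and untreated in blue. All points lie above 0 because the genes were chosen for that, and the treatments overlap in all 9 genes. MAK21, GAR1, RRP5 and UTP20 were chosen for this alone, after their values were seen. The other genes were also named by a rule that used the same values.

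The 7 exosome genes encode the complex that trims and degrades RNA from its 3′ end. Their pair medians were -0.041, 0.027 and 0.074 under H2O2 and 0.050, -0.038 and -0.057 untreated. In untreated replicate 2 the exosome median was below 0, with 3 of the 7 genes above 0, while every other role had a median above 0. RRP6, the nuclear exonuclease of the complex, lay above the median of the group in 5 of 6 pairs, with 0.090, 0.050 and 0.103 under H2O2 and 0.050, 0.028 and -0.020 untreated. Its difference between treatments was 0.062 (SE 0.041, limma adjusted p = 0.999). RRP43 and RRP45, subunits of the core ring, had means of -0.014 and -0.012.

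The dye part of the ratios was wider than the strain part in single members, while the list median kept its sign in either dye orientation. With ∆zta1 in Cy5 the list median was -0.044, 0.038 and 0.089 under H2O2 and 0.048, 0.076 and -0.022 untreated. With ∆zta1 in Cy3 it was -0.055, 0.020 and 0.102 under H2O2 and 0.049, 0.035 and -0.021 untreated. Both arrays of a pair thus gave the list median the same sign in all 6 pairs, with a gap of at most 0.041. For single genes it was otherwise. Within pairs the SD across the 92 genes was 0.084 to 0.115 for the dye part and 0.042 to 0.066 for the ratio. Over all genes it was 0.103 to 0.135 for the dye part and 0.111 to 0.161 for the ratio. The all-gene values include ZTA1 and other outlying genes, so these SDs are not a like measure of spread. By quartiles the ratios of the members did not spread less in every pair. In untreated replicate 3 the quartiles were -0.073 and 0.007 for the members, against -0.037 and 0.033 for all genes. Across the members the 2 arrays of a pair correlated at -0.727 to -0.325. Across all genes, with ZTA1, they correlated at -0.072 to 0.424. In the means of the dye orientations 63 members had opposite signs, among them 17 of the 30 members named by rule. The share of all genes with opposite signs was not counted, so these counts do not set the members apart. With ∆zta1 in Cy5, UTP5 was at 0.208, ENP2 at 0.208, DBP7 at -0.015 and RRP9 at -0.039. With ∆zta1 in Cy3, UTP5 was at -0.059, ENP2 at -0.028, DBP7 at 0.156 and RRP9 at 0.117. NSR1, the yeast counterpart of nucleolin and named here for this value, averaged -0.516 when ∆zta1 carried Cy5 and 0.539 when it carried Cy3, and its mean over the 6 pairs was 0.011.

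**Figure D4:**
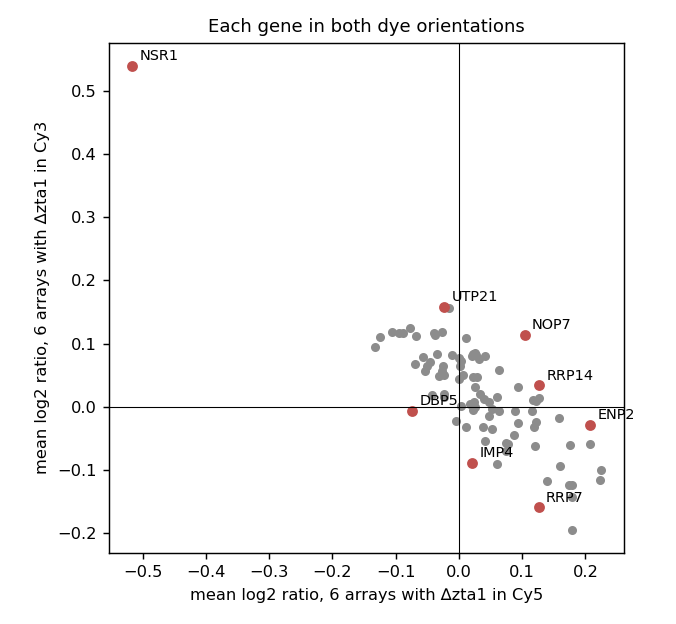
Mean log2 ratio of each of the 92 genes over the 6 arrays with ∆zta1 in Cy5 (horizontal axis) and over the 6 arrays with ∆zta1 in Cy3 (vertical axis). Most points fall along a line from upper left to lower right, with NSR1 at the far end (-0.516 and 0.539), while NOP7 (0.104 and 0.114) lies in the quadrant where both are positive.

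Fitted on either orientation alone, where the dye effect does not cancel, members passed at an adjusted p under 0.05, as did many other genes. With ∆zta1 in Cy5, 14 of 92 passed under H2O2 (15.2%, against 16.6% of all genes) and 12 untreated (13.0%, against 16.2%). With ∆zta1 in Cy3, 3 passed under H2O2 (3.26%, against 7.51% of all genes) and 4 untreated (4.35%, against 10.0%). For the mean of both treatments with ∆zta1 in Cy5, 23 were higher (25.0%, against 15.0% of all genes) and 6 lower (6.52%, against 21.9%). With ∆zta1 in Cy3, 15 were higher (16.3%, against 14.5%) and 6 lower (6.52%, against 11.9%). Of the 11 members that passed for the mean in both orientations, 10 had opposite signs, among them CBF5, NSR1 and RRP7. NOP7 was the one with the same sign, 0.104 when ∆zta1 carried Cy5 and 0.114 when it carried Cy3. It was above 0 on all 12 arrays, from 0.041 to 0.207. The counts in both orientations, and of arrays above 0, were not made over all genes. They do not set the members or NOP7 apart. With ∆zta1 in Cy5 UTP21 was at -0.023 and RRP7 at 0.126, and with ∆zta1 in Cy3 UTP21 was at 0.158 and RRP7 at -0.159.

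Other ribosome biogenesis genes on the arrays shifted with the 92 from pair to pair, and 1 of them passed the test. The median of 90 such genes outside the symbol rule was -0.013, 0.027 and 0.124 in the H2O2 pairs and 0.047, 0.058 and -0.018 in the untreated pairs, the same signs as the 92. In H2O2 replicate 1 the sign of that median turned with the dye, from 0.009 with ∆zta1 in Cy5 to -0.049 in Cy3. In untreated replicate 3 it was -0.002 with ∆zta1 in Cy5 and -0.049 in Cy3. Of these 90, 1 passed as higher and 0 as lower. That gene was NOB1, the endonuclease that makes the last cut of the small subunit RNA. NOB1 had ratios of 0.748, 0.711 and 0.710 under H2O2 (limma adjusted p = 6.87e-05) and 0.740, 0.583 and 0.746 untreated (limma adjusted p = 6.04e-05).

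Genes of the stress response, which in yeast is known to run opposite to ribosome synthesis, had a median of the opposite sign to the 92 genes in every pair. In untreated replicate 3 that median was close to 0. The median of 33 targets of the stress regulators Msn2 and Msn4 was 0.040, -0.082 and -0.251 in the H2O2 pairs and -0.092, -0.044 and 0.018 in the untreated pairs. It was lowest in H2O2 replicate 3, where the ribosome biogenesis median was highest. In untreated replicate 3 the stress median was 0.002 with ∆zta1 in Cy5 and 0.005 in Cy3, with 17 of 33 genes above 0 on either array. The quartiles of the stress genes lay on both sides of 0 in H2O2 replicate 1 (-0.028 and 0.095). They also did so in untreated replicates 2 (-0.084 and 0.091) and 3 (-0.018 and 0.028). Whether stress genes have a part in the shift of a pair was not tested. The 135 cytosolic ribosomal protein genes had medians of 0.008, -0.095 and 0.059 under H2O2 and 0.027, 0.040 and -0.029 untreated. Their median was below 0 in H2O2 replicate 2, where that of the 92 genes was above 0. These medians turned with the dye in every pair, for example -0.104 and 0.076 in H2O2 replicate 1 and -0.213 and 0.026 in H2O2 replicate 2 with ∆zta1 in Cy5 and in Cy3.

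**Figure D5:**
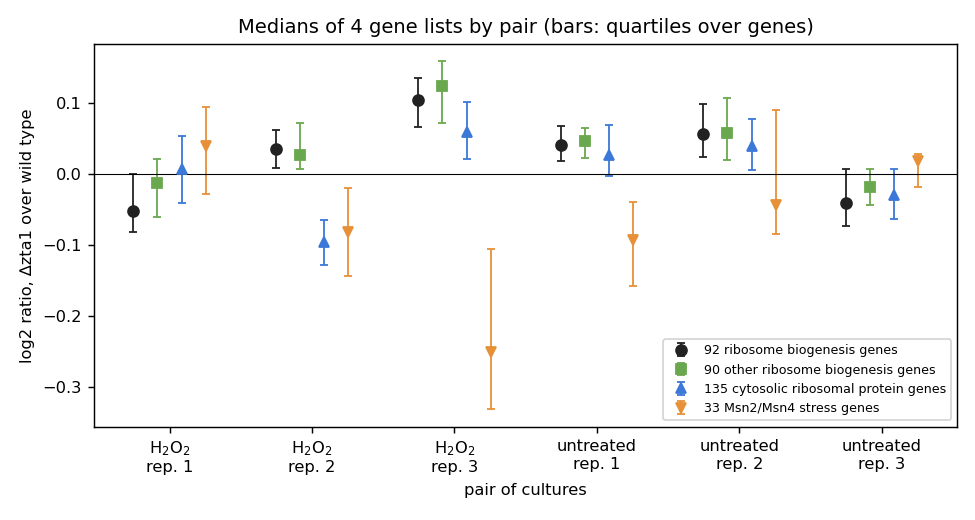
Median log2 ratio of ∆zta1 over wild type (vertical axis, bars for the quartiles over genes) of 4 gene lists in each pair of cultures (horizontal axis). The median of the stress genes (orange) lies on the other side of 0 from that of the 92 ribosome biogenesis genes (black) in all 6 pairs. The median of the other ribosome biogenesis genes (green) lies on the same side. The bars of the stress genes cross 0 in H2O2 replicate 1 and untreated replicates 2 and 3. Those of the other ribosome biogenesis genes cross 0 in H2O2 replicate 1 and untreated replicate 3.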

How the data were processed

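The authors deposited log2 ratios from 2-colour Agilent arrays, 1 value for each probe on each array. limma is named in the submitters' processing notes, and the background correction, normalisation, log base and signal over background are not given in the sources used here. Array medians of -0.0172 to 0.0165 show values that were already nearly centred. ZTA1 was negative on all 12 arrays, so all ratios were taken to be ∆zta1 over wild type. Description labels of replicate 3 partly say replicate 2, and arrays were paired by title. The labels call the replicates biological. Probes of 1 gene were averaged (25 genes, no member), and 636 of 6256 probes had no gene.

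The 2 arrays of a pair were averaged. limma 3.58.1 (R 4.3.3, lmFit and eBayes) was fitted to all 5594 genes in 6 pairs, with 1 mean per treatment and 4 residual degrees of freedom, and was tested on simulated data. The 4 two-sided comparisons were H2O2, untreated, their difference and their mean. The text names the highest and lowest member of each role, the 3 smallest p-values per direction, the 3 widest and 3 narrowest SDs, DBP2, DBP5 and any gene that passed. Members and lists were chosen with earlier results of these data known. Deviations of each pair from its treatment mean, without ZTA1, were correlated across genes between the treatments. Same-numbered pairs gave -0.0196, 0.0268 and -0.272, and differently numbered pairs gave -0.133 to 0.257. Such deviations constrain one another and cannot settle the pairing, and the numbers were not taken to pair samples.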

Additional observations from a re-analysis of the deposited data

How the results depend on the processing

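The counts of members that passed and the medians over members were recomputed under 17 settings, 6 of which leave out a pair. Of 66 counts 60 were 0, and the other 6 came from fits to 1 dye orientation, where a dye effect does not cancel. With ∆zta1 in Cy5 alone 14 members passed under H2O2, 12 untreated and 29 for the mean of both, and with ∆zta1 in Cy3 alone 3, 4 and 21. Of all genes, 16.6% passed under H2O2 and 16.2% untreated with Cy5 alone, and 7.51% and 10.0% with Cy3 alone. For the mean, the shares of all genes are given above by direction. With the replicate number as a replicate block 0 members passed in every comparison. Of 66 medians, 0 moved by more than 1 SD of the pair medians. That bound was wide, as under H2O2 the SD of 0.078 exceeded the median of 0.028. Leaving out 1 of 3 pairs can hardly move a median that far, and several settings return the same median by construction. Even the H2O2 median of -0.0078, with its sign turned, did not count as moved. The count therefore does not show the medians to be stable. Leaving out a pair gave medians of -0.0078 to 0.068 for H2O2, 0.0061 to 0.0546 untreated, -0.0288 to 0.0439 for the difference and 0.0067 to 0.0467 for the mean. The other settings gave 0.0219 to 0.0309, 0.0046 to 0.0286, -0.0059 to 0.0176 and 0.0126 to 0.029 in that order.

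Of 777 values recomputed for named genes, 731 kept their sign. They cover every gene named by rule, with RRP5, UTP20 and NSR1, for the mean of both treatments. For the other comparisons they cover the members of smallest p. Many of these values could not change, so the count is no measure of robustness. The fits with a dye term, a replicate block, each treatment alone, robust eBayes or each probe alone return the same ratio. Leaving out a pair of the other treatment does so too. With ∆zta1 in Cy5 alone the sign turned under H2O2 for RPA43 (0.003) and RRP7 (0.077), and for the mean for CBF5 (-0.105), DBP7 (-0.015), IMP4 (0.021), NSR1 (-0.516), RPA43 (0.011), RRP7 (0.126), RRP9 (-0.039), UTP21 (-0.023) and UTP6 (0.060). With ∆zta1 in Cy3 alone it turned for the mean for ENP2 (-0.028), IMP3 (-0.093), NHP2 (-0.007), RRP45 (0.018), RRP8 (0.110), SSF1 (-0.061), UTP11 (0.094), UTP15 (0.021) and UTP5 (-0.059). With pairs weighted by quality it turned for DBP2 (-0.002) and NSR1 (-0.026), and UTP15 turned with arrays centred (0.001) or centred and scaled (0.002).

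Leaving out a pair gave ranges across 0 of -0.044 to 0.015 for RPA43 under H2O2 and -0.080 to 0.001 for RRP43 untreated. For the mean of both treatments such ranges were -0.014 to 0.078 for BRX1, -0.002 to 0.014 for CBF5, -0.015 to 0.071 for DBP2, -0.009 to 0.082 for IMP3, -0.035 to 0.042 for NSR1 and -0.021 to 0.009 for RPA43. They were -0.038 to 0.006 for RRP43, -0.047 to 0.032 for RRP8, -0.061 to 0.021 for UTP11, -0.011 to 0.013 for UTP15 and -0.049 to 0.028 for UTP6. The causes were not tested. Signal over background is unknown. The planned description of promoter motifs was not run, since no promoter sequences were used here.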

Other observations

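By the order of genes in the RefSeq table of assembly R64, the 92 members lie on 14 chromosomes and include 4 adjacent pairs. The mean ratios over both treatments of these neighbours were 0.014 for RRP3 and 0.057 for SSF1, 0.002 for RPF1 and 0.037 for GAR1, -0.011 for RPA43 and 0.029 for RPA190, and 0.020 for RRP15 and 0.035 for NOC4. In each of these pairs of neighbours the genes are on opposite strands.

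Relative to the list median of each pair, 3 members lay above it in all 6 pairs (DBP7, ENP2 and NOP7) and 4 below it in all 6 (DBP5, EBP2, RRP17 and RRP42). The same count around the all-gene median was not made. That median was near 0 (-0.003 to 0.002), and 3.09% of all genes were above 0 and 3.74% below 0 in all 6 pairs. So these counts do not set the 7 genes apart. EBP2 and RRP17 belong to large subunit assembly, and RRP42 is a subunit of the exosome core. EBP2 was at -0.070, 0.018 and 0.081 under H2O2 and at 0.034, 0.037 and -0.084 untreated, so it shifted between pairs like the list while staying under its median. These 7 genes were singled out after their values were seen.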
